A study of Homo sapiens with 8 samples.

Results

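The genes described here are 49 interferon-stimulated and antigen presentation genes, measured in DU145 cells, a human prostate cancer cell line. They were chosen by symbol from the annotation of the array, and each gene was represented by its brightest probeset, a set of probes that together measure 1 transcript. Of the 49 genes, 44 had a probeset of 1 symbol and are counted below, out of 18417 such genes and 33297 probesets in the series. HLA-B, HLA-C and HLA-F were found only on probesets that carry several symbols, and HLA-E and STAT2 were matched to no probeset in the annotation used here. The 44 genes comprised 4 of 8 listed genes of antigen presentation, 28 of 28 antiviral effectors and 12 of 13 sensors and regulators.

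DU145 cells kept without serum were profiled in 4 groups on 8 Affymetrix Human Gene ST arrays, 2 to a group, which the labels call biological replicates. The FGF19 + TNFα group was given 50 ng/ml FGF19 with 100 µg/ml heparin for 10 min, followed by 50 ng/ml TNFα for a further 90 min. The TNFα group had the same TNFα for 90 min, the FGF19 group had the same FGF19 and heparin for 100 min, and the Mock group was untreated. These doses are those of the labels, and the paper's methods name other concentrations of heparin and TNFα. FGF19, an endocrine growth factor, signals through the receptor FGFR4. The cytokine TNFα drives inflammation by way of the transcription factor NFκB. Heparin was given in both groups with FGF19 and in neither of the others, so that FGF19 and heparin cannot be told apart.

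Values are linear PLIER signals as deposited, and array medians lay between 99.5 and 106.6. Over the 44 genes log2 signals correlated with r = 0.987 to 0.997 between replicate arrays, 0.988 to 0.993 between arrays unlike in TNFα alone, and 0.880 to 0.926 between arrays unlike in FGF19. The epithelial keratin gene KRT18 had signals of 2969 and 2985 with FGF19 + TNFα, 3229.7 and 3325 with TNFα, 2644 and 3139 with FGF19 and 3618 and 3206 in Mock. Of 7 epithelial genes 3, the keratins KRT7, KRT8 and KRT19, fell with FGF19 relative to Mock and none rose. Relative to TNFα the same 3 fell and CDH1 rose. Of all probesets 14.1% fell and 18.2% rose relative to Mock, and 12.9% fell and 19.4% rose relative to TNFα. KRT19 was at 532 and 737 with FGF19 against 1555 and 1478 in Mock (adjusted p = 0.0033 from limma). The leukocyte gene PTPRC lay below the 20th percentile of signal on all 8 arrays. Of 5 leukocyte genes, CD3E rose and CD68 fell with FGF19 relative to Mock, CD3E rose relative to TNFα, and PTPRC, CD3E and ITGAM rose with FGF19 + TNFα relative to Mock. The part of these genes in the results below was not tested. In an extract of many cells, fewer cells of a type and less RNA per cell cannot be told apart.

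Interferons act through cell surface receptors whose kinases JAK1, JAK2 and TYK2 phosphorylate STAT proteins. STAT2 and IRF9 are parts of a complex, ISGF3, that binds the interferon-stimulated response element (ISRE), and the gamma-activated site (GAS) is a further element of interferon-responsive promoters. The genes reached in this way encode RNA sensors, enzymes and membrane proteins that block viral replication, and much of the machinery that loads peptides onto major histocompatibility complex (MHC) class I molecules. In that machinery TAP1 and TAP2 form the peptide transporter of the endoplasmic reticulum, TAPBP (tapasin) tethers the class I molecule to it, and B2M is the light chain shared by class I molecules. Several of these genes, TAP1 among them, are also known targets of NFκB.

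The start regions of these genes carry the ISRE letters more often than those of genes at large. RefSeq windows on GRCh38.p14, running from 250 bases before to 50 bases after each gene start, were at hand for 39 of the 49 genes. The ISRE core GAAANNGAAA, on either strand, was found in 29 of these 39 genes (74.4%), against 4.38% of 27305 genes with such windows. The GAS core TTCNNNGAA, whose reverse complement is the same, was found in 8 of 39 (20.5%) against 9.38%, and the NFκB consensus in 11 of 39 (28.2%) against 13.3%. The stretches below show upstream ISRE matches in capitals unless another motif is named, printed 5′ to 3′ along the gene's strand. Of the 3 upstream ISRE matches of IFIH1, 1 lies outside its stretch. LGALS3BP, IFITM3, B2M and IFI35 had the smallest p-values of the 44 genes in the comparison of FGF19 + TNFα with TNFα. The window of IFI35 holds no ISRE core, and its capitals mark a GAS core. SAMD9, IFIH1, TAP1 and TAPBP were added after their values had been seen, SAMD9 as the gene with the largest rise with FGF19 and the others for their higher signals with TNFα. Capitals in B2M, IFIH1, the first TAP1 stretch and TAPBP hold overlapping ISRE cores, and those of the second TAP1 stretch mark the NFκB consensus. The windows of B2M, IFITM3, IFIH1 and TAPBP hold the NFκB consensus too, and it is not marked in their stretches. With TNFα against Mock the log2 differences of these 4 genes were 0.0016, -0.10, 0.55 and 0.51, none of them called.
LGALS3BP (chr17:78979942-78980011, minus strand): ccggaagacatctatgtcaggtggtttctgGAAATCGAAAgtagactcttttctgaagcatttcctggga
IFITM3 (chr11:320873-320942, minus strand): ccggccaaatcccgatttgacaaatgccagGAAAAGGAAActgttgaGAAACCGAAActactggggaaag
B2M (chr15:44711343-44711412, plus strand): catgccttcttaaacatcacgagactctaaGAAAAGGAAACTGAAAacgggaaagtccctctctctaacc
IFI35 (chr17:43006732-43006783, plus strand): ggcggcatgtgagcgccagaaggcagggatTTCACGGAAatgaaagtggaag
SAMD9 (chr7:93118076-93118145, minus strand): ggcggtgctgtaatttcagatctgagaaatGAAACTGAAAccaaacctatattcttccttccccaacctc
IFIH1 (chr2:162318804-162318873, minus strand): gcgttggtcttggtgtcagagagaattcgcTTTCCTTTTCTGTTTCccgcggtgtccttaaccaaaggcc
TAP1 ISRE (chr6:32853799-32853868, minus strand): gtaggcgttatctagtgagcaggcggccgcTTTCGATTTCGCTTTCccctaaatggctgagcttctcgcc
TAP1 NFκB (chr6:32853737-32853806, minus strand): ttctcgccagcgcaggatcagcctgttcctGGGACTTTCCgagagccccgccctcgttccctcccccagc
TAPBP (chr6:33314079-33314128, minus strand): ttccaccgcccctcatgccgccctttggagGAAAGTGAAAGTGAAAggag
The ISRE core was in 10 of 12 genes higher with FGF19 than in Mock, 7 of 9 lower and 11 of 14 not called, among those with a window and a probeset. A match is a description of the sequence, and binding was not measured.

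With FGF19 and heparin some of the interferon-stimulated genes rose and others fell, as genes did across the array, with or without TNFα. Against Mock, 13 of the 44 genes rose with FGF19 and 12 fell, at an adjusted p under 0.05 from limma with Benjamini-Hochberg adjustment over all probesets. Of all probesets, 18.2% rose and 14.1% fell in the same comparison. Among the 44 genes 29.5% rose and 27.3% fell, and their median log2 difference was 0.12, against 0.08 over all probesets. Of the 18417 genes, chosen by brightest probeset like the 44, 19.9% rose and 17% fell, with a median of 0.06. With TNFα present, FGF19 + TNFα against TNFα, 12 genes rose and 14 fell, where 19.4% of all probesets rose and 12.9% fell. The median was 0.13, against 0.10 over all probesets. Of the 18417 genes 21.9% rose and 15.4% fell in this comparison, with a median of 0.11. Differences ran between -1.56 and 1.23 on the log2 scale against Mock, and between -1.64 and 1.13 against TNFα. In the brackets below, SE is the standard error from limma, with n = 2 arrays a group.

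**Figure D1:**
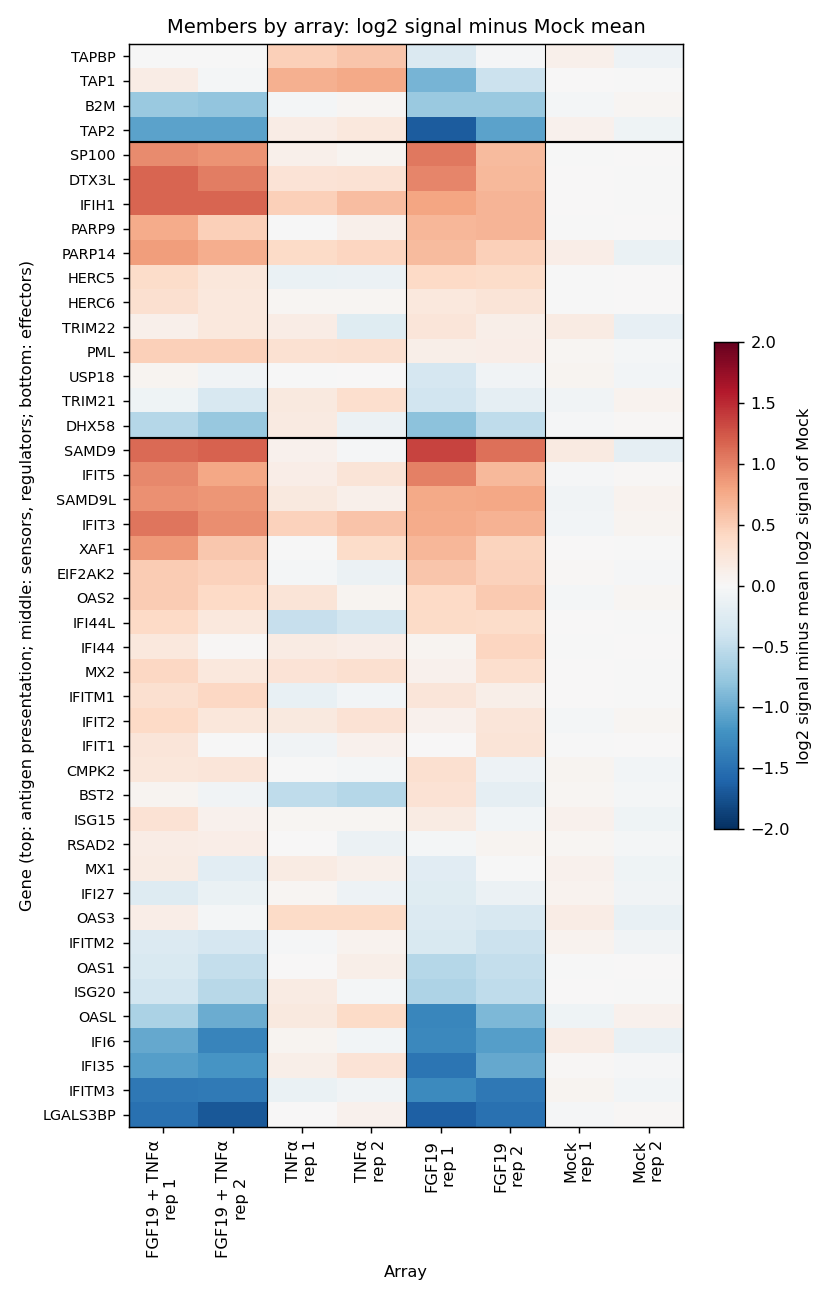
Colours give the log2 signal of each of 44 genes on each of 8 arrays minus the gene's mean in Mock, with genes of antigen presentation at the top, sensors and regulators in the middle and effectors at the bottom. The 4 arrays with FGF19 share their red and blue genes, from SAMD9, 1.23 above Mock on average with FGF19, to LGALS3BP, at -1.56.

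Of 8 genes listed for antigen presentation, 4 were tested. All 4 fell with FGF19 + TNFα relative to TNFα, where 12.9% of all probesets fell, and 3 of 4, TAP1, TAP2 and B2M, fell with FGF19 relative to Mock, where 14.1% did. TAP2, 1 subunit of the peptide transporter, had signals of 202 and 303 with FGF19 against 679.5 and 600.2 in Mock, and 304 and 306 with FGF19 + TNFα against 704 and 736 with TNFα. It fell 2.58-fold relative to Mock (log2 difference -1.37 ± 0.19 SE, adjusted p = 0.00429) and 2.36-fold relative to TNFα (adjusted p = 0.00618). The groups with FGF19 lay apart from those without it, although the first FGF19 array was well below the second. B2M, the class I light chain, had 1732 and 1728 with FGF19 against 2820.0 and 2946 in Mock, and 1730.4 and 1665 with FGF19 + TNFα against 2805 and 2969 with TNFα. Its 4 signals with FGF19 lay within a narrow band, and it fell 1.67-fold relative to Mock (log2 difference -0.74 ± 0.08 SE, adjusted p = 0.00296) and 1.7-fold relative to TNFα (adjusted p = 0.00352).

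TAP1, the other transporter subunit, had 415 and 586 with FGF19 against 795 and 784 in Mock, and 871 and 771 with FGF19 + TNFα against 1289 and 1332 with TNFα. Both pairs of groups were apart, with a fall of 1.6-fold relative to Mock (adjusted p = 0.0255) and 1.6-fold relative to TNFα (adjusted p = 0.0267). The first call was lost without either Mock array (adjusted p up to 0.106) and the second without any 1 of the Mock, TNFα or FGF19 + TNFα arrays (adjusted p up to 0.123). TAPBP had 1096 and 1313 with FGF19 against 1444 and 1244 in Mock, and 1331 and 1335 with FGF19 + TNFα against 1862 and 1963 with TNFα, so that it was lower with FGF19 + TNFα than with TNFα (1.43-fold, adjusted p = 0.0233) and overlapped between FGF19 and Mock (adjusted p = 0.37). Its call relative to TNFα was lost without any 1 of the TNFα or FGF19 + TNFα arrays (adjusted p up to 0.106). The class I heavy chains are nearly alike in sequence, and the array could not separate them. A probeset annotated to both HLA-C and HLA-B had 1688 and 1932 with FGF19 against 3381 and 3329 in Mock, and 2105 and 1800.3 with FGF19 + TNFα against 3425 and 3373 with TNFα, and fell 1.86-fold relative to Mock (adjusted p = 0.00354) and 1.75-fold relative to TNFα (adjusted p = 0.00509). Others annotated to HLA-C and HLA-B fell 1.7-fold and 1.78-fold relative to Mock. Some annotated to HLA-F and HLA-B fell 2.03-fold and 2.18-fold relative to Mock. None of these probesets is counted among the 44 genes.

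Effectors moved both ways, with 7 of 28 up (25%) and 8 down (28.6%) in each of the comparisons with FGF19. Of all probesets 18.2% rose and 14.1% fell relative to Mock, and 19.4% rose and 12.9% fell relative to TNFα. The largest falls among the effectors were of genes for secreted, membrane and cytoplasmic proteins. LGALS3BP, a secreted glycoprotein that binds galectins, had signals of 107 and 119 with FGF19 against 328 and 336 in Mock, and 118 and 102 with FGF19 + TNFα against 334 and 352 with TNFα. It fell 2.94-fold relative to Mock (log2 difference -1.56 ± 0.11 SE, adjusted p = 0.00275) and 3.12-fold relative to TNFα (log2 difference -1.64, adjusted p = 0.00348), and every array with FGF19 was under every array without it. IFITM3, a membrane protein that hinders the entry of enveloped viruses, had 146 and 132 with FGF19 against 366 and 341 in Mock, and 132 and 132 with FGF19 + TNFα against 323 and 337 with TNFα. Its falls were 2.55-fold (log2 difference -1.35, adjusted p = 0.00275) and 2.5-fold (log2 difference -1.32, adjusted p = 0.00348). IFI35, an interferon-induced leucine zipper protein, had 130.3 and 177 with FGF19 against 365 and 355 in Mock, and 168 and 159 with FGF19 + TNFα against 392 and 436 with TNFα, a fall of 2.37-fold relative to Mock (adjusted p = 0.0034) and 2.53-fold relative to TNFα (adjusted p = 0.00364). IFI6, which opposes apoptosis and flavivirus replication, had 462 and 528 with FGF19 against 1245 and 1021 in Mock, and 556 and 451 with FGF19 + TNFα against 1167 and 1084 with TNFα, and fell 2.28-fold and 2.25-fold (adjusted p = 0.00367 and 0.0044). For these genes the arrays with FGF19 never reached the lowest array without it.

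The IFITM family did not move as one. IFITM2 had 476 and 440.4 with FGF19 against 619 and 563 in Mock, and 487 and 468 with FGF19 + TNFα against 578 and 619 with TNFα, a fall of 1.29-fold relative to Mock (adjusted p = 0.03) that was lost without any 1 array of the Mock, TNFα or FGF19 + TNFα groups, or without the second FGF19 array (adjusted p up to 0.150). IFITM1 had 82.8 and 75.7 with FGF19 against 70.7 and 69.2 in Mock, and 87.7 and 93.3 with FGF19 + TNFα against 62.9 and 67.6 with TNFα, and rose 1.39-fold relative to TNFα (adjusted p = 0.0126) with an adjusted p of 0.193 relative to Mock. BST2 (tetherin), which holds budding virions at the cell surface, was dim, between 29.2 and 53.0 on the 8 arrays, and was called in none of the comparisons. The sequences of IFITM1, IFITM2 and IFITM3 are close, and probes of the array may be shared between their transcripts.

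The rising effectors were led by SAMD9 and its neighbour and relative SAMD9L, which restrict poxviruses. SAMD9 had signals of 429 and 361 with FGF19 against 191 and 147 in Mock, and 367 and 380.2 with FGF19 + TNFα against 178 and 164 with TNFα, and rose 2.35-fold relative to Mock (log2 difference 1.23 ± 0.15 SE, adjusted p = 0.00336) and 2.19-fold relative to TNFα (adjusted p = 0.00456). SAMD9L rose 1.69-fold and 1.68-fold from a low signal of 29.1 and 32.4 in Mock, close to the dimmest 20 percent of probesets, whose mean signal was up to 34.1. Both genes had every array with FGF19 above every array without it. EIF2AK2 (PKR), the kinase that halts translation on binding double-stranded RNA, was bright and even, with 2004 and 1877 with FGF19 against 1389 and 1347 in Mock, and 1935 and 1892 with FGF19 + TNFα against 1333 and 1261 with TNFα. It rose 1.42-fold (log2 difference 0.50 ± 0.08 SE, adjusted p = 0.00702) and 1.48-fold (adjusted p = 0.0058).

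The IFIT genes, whose proteins bind viral RNA and block its translation, lie side by side on 1 chromosome and differed with FGF19. IFIT3 had 959.6 and 921 with FGF19 against 550.4 and 593 in Mock, and 1204 and 1094 with FGF19 + TNFα against 784 and 852 with TNFα, a rise of 1.65-fold relative to Mock (log2 difference 0.72 ± 0.10 SE, adjusted p = 0.00406) and 1.4-fold relative to TNFα (adjusted p = 0.0133). IFIT5 had 582 and 453 with FGF19 against 285 and 295 in Mock, and 564 and 497 with FGF19 + TNFα against 318 and 347 with TNFα, a rise of 1.77-fold and 1.59-fold (adjusted p = 0.00788 and 0.0163). IFIT1 and IFIT2 were not called. IFIT1 had 789.6 and 931 with FGF19 against 778 and 787 in Mock, and 928 and 782 with FGF19 + TNFα against 749 and 829 with TNFα (adjusted p = 0.484 and 0.541), so that the FGF19 arrays lay just above the Mock arrays and the other groups overlapped. The difference between the IFIT genes was not itself tested.

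The oligoadenylate synthetases make the second messenger that switches on RNase L, and they too went both ways. OAS1 had 97.5 and 105 with FGF19 against 145 and 146 in Mock, and 118 and 104 with FGF19 + TNFα against 147 and 159 with TNFα, and fell 1.44-fold and 1.37-fold (adjusted p = 0.0104 and 0.018). OASL, which lacks the enzymatic activity and helps the sensor RIG-I, had 123 and 163 with FGF19 against 285 and 322 in Mock, and 196 and 153 with FGF19 + TNFα against 348 and 394 with TNFα, and fell 2.14-fold in each comparison (adjusted p = 0.00735 and 0.0081). OAS2 was higher instead, with 116 and 126 with FGF19 against 85.5 and 90.3 in Mock (adjusted p = 0.0201), but was not called relative to TNFα (adjusted p = 0.0835), and OAS3 was not called. The exonuclease gene ISG20 fell 1.48-fold and 1.43-fold (adjusted p = 0.0124 and 0.0185).

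ISG15 and MX1 did not pass the test with FGF19. ISG15, a ubiquitin-like modifier, had 165 and 142 with FGF19 against 157 and 138 in Mock, and 180.1 and 156 with FGF19 + TNFα against 151 and 151 with TNFα (adjusted p = 0.764 and 0.389). MX1, a dynamin-like GTPase that blocks influenza virus, had 526 and 613 with FGF19 against 656 and 581 in Mock, and 690.1 and 535 with FGF19 + TNFα against 691 and 664 with TNFα (adjusted p = 0.587 and 0.463). The groups of MX1 overlapped in both comparisons and those of ISG15 overlapped without TNFα. RSAD2 (viperin), whose product is an antiviral nucleotide, was near the floor at 29.2 to 35.3 on the 8 arrays. MX2, IFI27, IFI44, CMPK2 and XAF1 were not called either, while the dim gene IFI44L had 45.0 and 39.9 with FGF19 + TNFα against 24.9 and 26.7 with TNFα, a rise of 1.64-fold (adjusted p = 0.00443).

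**Figure D2:**
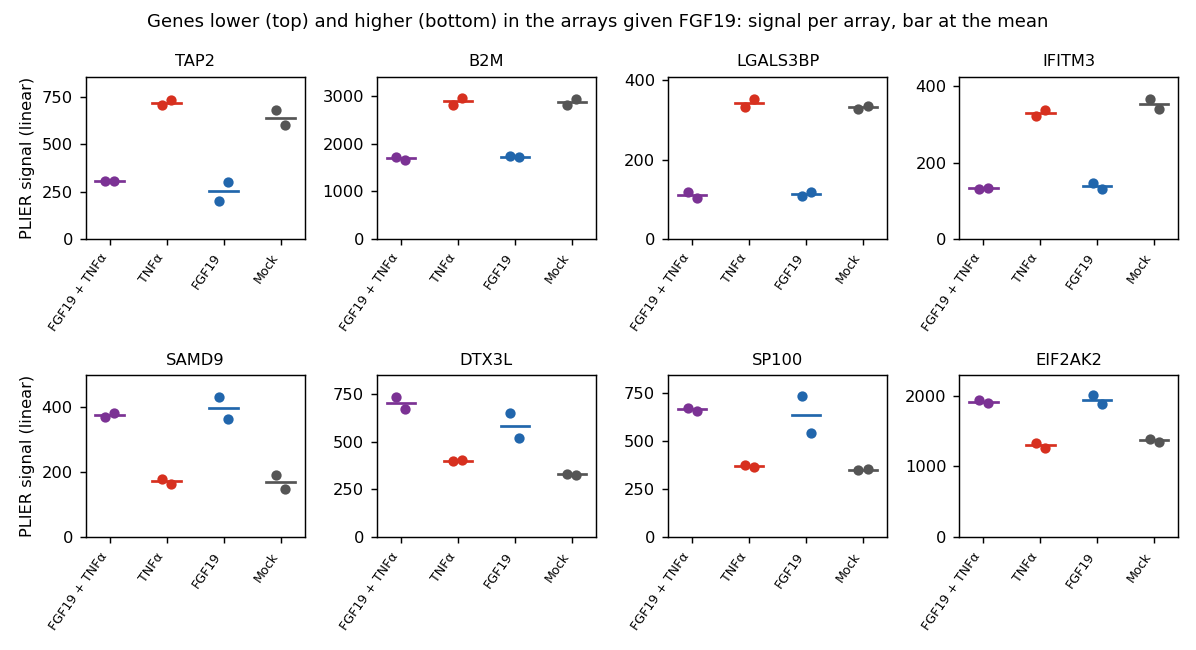
Linear PLIER signal on each array (points) and group mean (bar) for 8 genes, with FGF19 + TNFα, TNFα, FGF19 and Mock from left to right. TAP2, B2M, LGALS3BP and IFITM3 were lower on all 4 arrays with FGF19, and SAMD9, DTX3L, SP100 and EIF2AK2 were higher on all 4.

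Among 12 sensors and regulators more genes rose than fell, 6 against 1 relative to Mock and 5 against 2 relative to TNFα. Over all probesets, too, more rose than fell, 18.2% against 14.1% relative to Mock and 19.4% against 12.9% relative to TNFα. PARP9 and DTX3L act as a complex of an ADP-ribosyltransferase fold and a ubiquitin ligase, and their genes share a promoter region. DTX3L had signals of 647 and 516 with FGF19 against 331 and 326 in Mock, and 734 and 669.5 with FGF19 + TNFα against 399 and 402 with TNFα, and rose 1.76-fold (log2 difference 0.82 ± 0.12 SE, adjusted p = 0.00553) and 1.75-fold (adjusted p = 0.00632). PARP9 rose 1.6-fold and 1.48-fold (adjusted p = 0.00678 and 0.0128), and the neighbouring ADP-ribosyltransferase gene PARP14 rose 1.47-fold relative to Mock (adjusted p = 0.0159) with an adjusted p of 0.0543 relative to TNFα. SP100, a scaffold of the nuclear bodies named after PML, had 729.5 and 541 with FGF19 against 349 and 351 in Mock, and 671 and 656 with FGF19 + TNFα against 376 and 363 with TNFα, and rose 1.79-fold and 1.8-fold (adjusted p = 0.00766 and 0.00841). Its FGF19 arrays were further apart than those of the other groups. PML itself had 219.7 and 221 with FGF19 against 206 and 197 in Mock, and 279 and 281 with FGF19 + TNFα against 248 and 252 with TNFα, without a call in either comparison (adjusted p = 0.258 and 0.151).

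Of the RNA sensors of the RIG-I family, IFIH1 and DHX58 took opposite sides. RIGI, the gene of RIG-I itself, was called neither relative to Mock nor relative to TNFα (log2 differences 0.19 and 0.04, adjusted p = 0.162 and 0.758 from limma). IFIH1 (MDA5), which detects long double-stranded RNA, had 339 and 314 with FGF19 against 197 and 194 in Mock, and 439 and 438 with FGF19 + TNFα against 273 and 301 with TNFα, and rose 1.67-fold (log2 difference 0.74 ± 0.09 SE, adjusted p = 0.00335) and 1.53-fold (adjusted p = 0.0056). DHX58 (LGP2), a relative without the signalling domain, had 48.2 and 60.0 with FGF19 against 83.4 and 86.9 in Mock, and 57.5 and 50.5 with FGF19 + TNFα against 96.8 and 78.8 with TNFα, and fell 1.58-fold and 1.62-fold (adjusted p = 0.0212 and 0.0188). HERC5, the ligase that attaches ISG15, rose 1.3-fold and 1.33-fold (adjusted p = 0.0189 and 0.0149), while USP18, which removes ISG15, was not called, nor was the related ligase gene HERC6. The antibody receptor gene TRIM21 fell 1.38-fold relative to TNFα (adjusted p = 0.0368), and TRIM22, near the floor at 27.2 to 38.2, was not called.

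**Figure D3:**
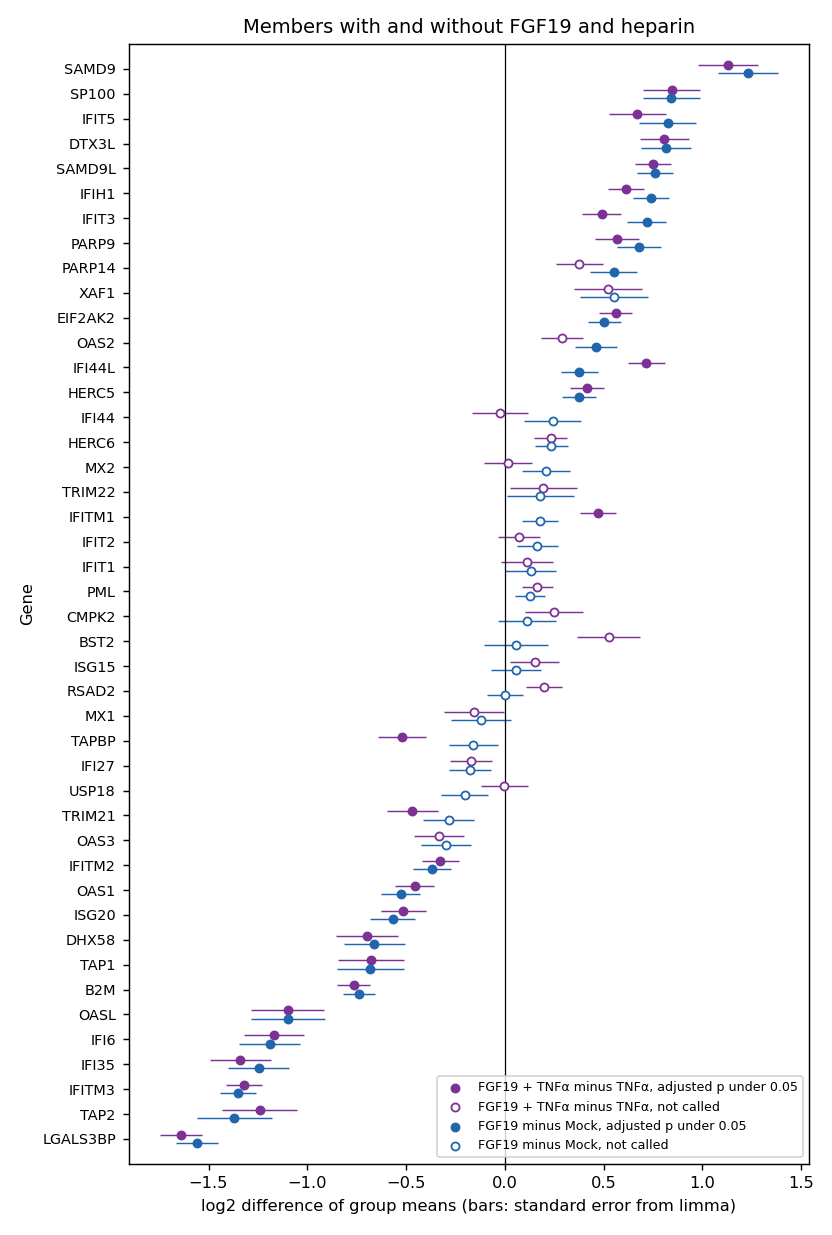
Points give the log2 difference of group means for 44 genes, FGF19 + TNFα minus TNFα in purple and FGF19 minus Mock in blue, with limma standard errors as bars and filled points for an adjusted p under 0.05. The 2 comparisons use separate arrays, and 43 of 44 genes had the same sign in both, against 15464 of all 18417 genes.

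These comparisons share no arrays, so that their log2 differences are separate measurements of the difference made by FGF19 and heparin. Their calls are not separate tests, since each gene has 1 estimate of spread from all 8 arrays that serves both. A gene with a small estimate is more readily called in both. Of the 25 genes called relative to Mock and the 26 called relative to TNFα, 23 were called in both, 92% of the first and 88.5% of the second, 11 of them higher in both, 12 lower in both and none in opposite directions. Over all genes with a probeset, 80.9% and 80.1% of those called were shared. The log2 differences of the 44 genes correlated between the comparisons at r = 0.974 (Spearman rho 0.942), and those of all 18417 genes at 0.890, as a description across genes, which are not independent replicates. SP100, IFIH1, DTX3L, SAMD9, SAMD9L and EIF2AK2 among the rises, and TAP2, B2M, LGALS3BP, IFITM3, IFI35, IFI6 and OASL among the falls, kept their calls in both comparisons under all 17 alternative settings, leaving out any array included. In all, 16 of the 25 calls relative to Mock and 14 of the 26 relative to TNFα did so.

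The remaining calls were not kept under every setting. Leaving out an array leaves fewer arrays to estimate the spread, also where the array is outside the groups compared. A call lost in this way does not show that the array carried the difference. Leaving out 1 array at a time gave 16 to 25 calls relative to Mock, the fewest without the second Mock array and 17 without the first, and 14 to 27 relative to TNFα, the fewest without the first TNFα array, with 17 and 18 without the second and first FGF19 + TNFα arrays. Relative to Mock, ISG20, OAS1, OAS2, IFI44L, DHX58, HERC5, TAP1 and IFITM2 lost their calls without either Mock array and PARP14 without the second, some of them without an FGF19 array also, at adjusted p-values up to 0.150. Relative to TNFα, ISG20, OAS1, DHX58, HERC5, TAP1, TAPBP, TRIM21, IFITM1, IFITM2, IFIT3, IFIT5 and PARP9 lost theirs without the first TNFα array and without at least 1 other, at adjusted p-values up to 0.191.

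The genes that rose with FGF19 were also longer on the genome than those that fell. The span from gene start to end had a median of 33.2 kb in the 13 genes higher than in Mock (6.43 to 129 kb), 8.58 kb in the 12 lower genes (1.19 to 26.3 kb) and 20.2 kb in the 19 not called. Over all genes the medians were 62.6 kb for those higher, 14.5 kb for those lower and 22.1 kb for the rest, so that the same ordering of higher and lower genes held across the array. Relative to TNFα the medians were 22.1 kb in the higher genes, 8.74 kb in the lower ones and 26.7 kb in those not called, and 56.5, 14.6 and 21.9 kb over all genes. Spearman's rho of span with the log2 difference against Mock was 0.404 over the 44 genes and 0.287 over all genes. The GC content of the start region had a median of 51.7% in the higher genes and 56.7% in the lower ones, against 62.7% and 65.8% over all genes. The part of gene length, GC content or RNA quality in the differences was not tested.

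**Figure D4:**
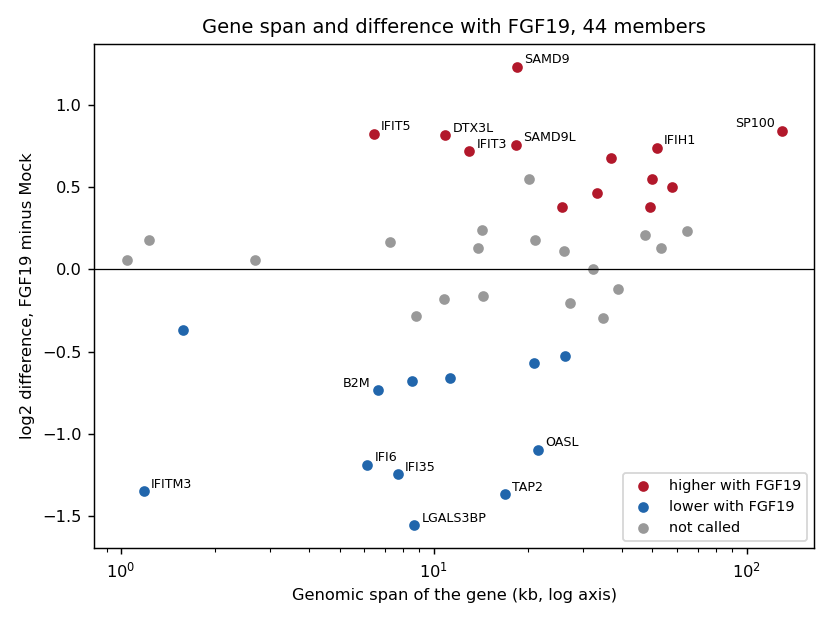
Each point is 1 of 44 genes, with its genomic span in kb on a log axis and its log2 difference, FGF19 minus Mock; red points rose, blue points fell and grey points were not called. Falling genes lay at 1.19 to 26.3 kb and rising genes at 6.43 to 129 kb.

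Between TNFα and Mock none of the 44 genes passed an adjusted p of 0.05 in limma, where 0.967% of all probesets rose and 0.0961% fell. The median log2 difference was 0.06, against -0.04 over all probesets, with a range of -0.54 to 0.73 over the 44 genes. In 22 of the 44 genes both TNFα arrays lay above both Mock arrays, and in 6 below, against 20.6% and 30.9% of all probesets. IFIH1, IFIT3, IFI44L, TAP1, TAPBP and PML had the smallest p-values, with IFI44L lower and the others higher with TNFα. IFIH1 had signals of 273 and 301 with TNFα against 197 and 194 in Mock, and 439 and 438 with FGF19 + TNFα against 339 and 314 with FGF19. It was 1.47-fold higher with TNFα than in Mock (log2 difference 0.55 ± 0.09 SE, adjusted p = 0.0605) and 1.34-fold higher with FGF19 + TNFα than with FGF19 (adjusted p = 0.281), and both TNFα arrays were above both Mock arrays. IFIT3 was 1.43-fold higher than in Mock (adjusted p = 0.0946), from the signals given above, again with both arrays above.

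The transporter gene TAP1, one of the NFκB targets, was higher in both settings with TNFα. It had 1289 and 1332 with TNFα against 795 and 784 in Mock, and 871 and 771 with FGF19 + TNFα against 415 and 586 with FGF19, 1.66-fold higher than in Mock (log2 difference 0.73 ± 0.17 SE, adjusted p = 0.159) and 1.66-fold higher than with FGF19 (adjusted p = 0.339). The groups did not overlap in either comparison. TAPBP was 1.43-fold higher with TNFα than in Mock (adjusted p = 0.18) and 1.11-fold higher with FGF19 + TNFα than with FGF19 (adjusted p = 1), and the difference between these had an interaction of -0.36 on the log2 scale (adjusted p = 0.973). PML had 248 and 252 with TNFα against 206 and 197 in Mock, and 279 and 281 with FGF19 + TNFα against 219.7 and 221 with FGF19, 1.24-fold and 1.27-fold higher (adjusted p = 0.193 and 0.319). B2M stayed within its replicate spread, at 2805 and 2969 with TNFα against 2820.0 and 2946 in Mock.

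The difference made by TNFα was also averaged over the arrays with and without FGF19, a comparison added after the data had been seen. Of the interferon-stimulated and antigen presentation genes counted here, this average called IFIH1 alone (log2 difference 0.49 ± 0.06 SE, adjusted p = 0.0230 by limma). Of the related genes described below, it also called RIGI (log2 difference 0.51, adjusted p = 0.0193), IL10RB (0.55, adjusted p = 0.0133) and ERAP1 (0.39, adjusted p = 0.0382). IFNAR2, IFNGR2, IKBKE and IRF1 were called higher as well. By this measure 1.31% of all probesets rose and 0.162% fell. TAP1 (log2 difference 0.73, adjusted p = 0.0501), PML (0.33, adjusted p = 0.0553) and IFIT3 (0.40, adjusted p = 0.0613) did not pass the threshold. Against Mock, other settings of the test also called IFIH1, IFIT3, TAP1, TAPBP or PML, as given below. On the low side IFI44L, at 24.9 and 26.7 with TNFα against 34.6 and 34.0 in Mock, was 1.33-fold lower (adjusted p = 0.158) and BST2 1.45-fold lower (adjusted p = 0.264), both dim. The standard genes ISG15, IFIT1 and MX1 had adjusted p-values of 0.936, 0.984 and 0.748.

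**Figure D5:**
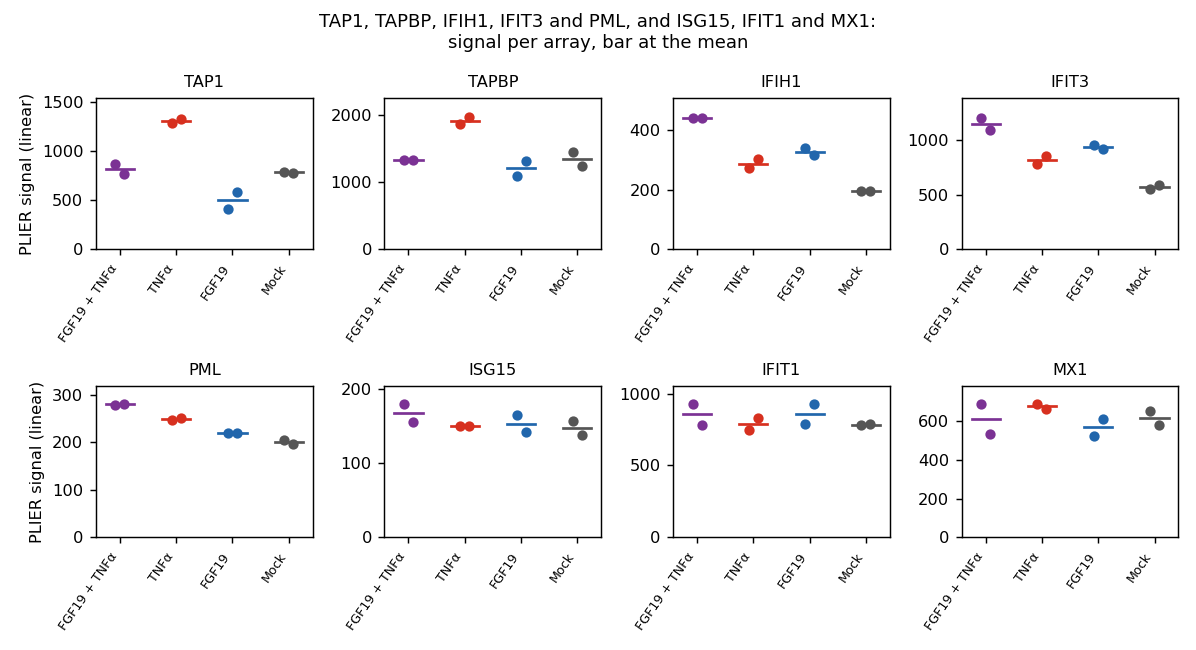
Linear PLIER signal on each array (points) and group mean (bar) for 8 genes, with FGF19 + TNFα, TNFα, FGF19 and Mock from left to right. TAP1, IFIH1, IFIT3 and PML were higher with TNFα in both pairs of groups, with no call in either comparison, while the TNFα arrays of ISG15 lay between its Mock arrays.

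In the presence of FGF19, none of the 44 genes passed the limma test of FGF19 + TNFα against FGF19, where 0.279% of all probesets rose and 0.003% fell. The interaction of FGF19 and TNFα was called in none of the 44 genes and in 0% of all probesets in either direction. Its smallest p among the 44 genes was that of IFI44L (log2 interaction 0.34, adjusted p = 0.96). A difference made by TNFα was thus not shown to depend on FGF19.

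Between FGF19 + TNFα and Mock, 16 genes were higher and 10 lower. Of all probesets 19.3% rose and 14.7% fell, and of the 18417 genes 21.5% rose and 17.3% fell. IFIH1, at 439 and 438 with FGF19 + TNFα against 197 and 194 in Mock, rose 2.24-fold (log2 difference 1.17 ± 0.09 SE, adjusted p = 0.00162), DTX3L 2.14-fold and IFIT3 2.01-fold (adjusted p = 0.00236 and 0.00187). The means of these genes were higher with each agent alone as well. PML rose 1.39-fold (adjusted p = 0.00613), and HERC6 and the apoptosis-linked gene XAF1 were also called (adjusted p = 0.0482 and 0.023). Without the first Mock array these 2 calls and those of ISG20, OAS1, OAS2, OASL, DHX58, HERC5, TAP2, PARP9 and IFITM1 were lost, and HERC6 lost its call also without any 1 of the other Mock, TNFα or FGF19 + TNFα arrays (adjusted p up to 0.191 for HERC6 and 0.0983 for XAF1). TAP1 and TAPBP, lower with FGF19 and higher with TNFα by their means, did not differ from Mock by the test, with log2 differences of 0.05 (standard error 0.17) and -0.01 (standard error 0.12), whereas TAP2 and B2M fell 2.1-fold and 1.7-fold (adjusted p = 0.0081 and 0.00213). Over the 4 groups together the F test called 22 of the 44 genes at an adjusted p under 0.015, against 20.9% of all probesets and 25.1% of the 18417 genes.

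The genes upstream of the interferon response were described from lists of the same pathway. TNFα raised the transcription factor gene IRF1, a target of NFκB, with 1965 and 1983 with TNFα against 288 and 251 in Mock, and 1616 and 1659 with FGF19 + TNFα against 303 and 384 with FGF19, 7.33-fold relative to Mock (adjusted p = 0.00102) and 4.8-fold relative to FGF19 (adjusted p = 0.005). It was the only one of 6 IRF genes called relative to Mock. Of 6 receptor genes 3 rose with TNFα relative to Mock, where 0.967% of all probesets rose. They were IFNAR2 (2.08-fold), IFNGR2 (1.76-fold) and IL10RB (1.52-fold), at adjusted p-values of 0.00868, 0.0226 and 0.0418 from limma. Their products serve type I, type II and type III interferons in part. The 3 genes lie close together on the genome. The other receptor genes tested, IFNAR1, IFNGR1 and IFNLR1, were not called. Of 10 genes of nucleic acid sensing only the kinase gene IKBKE rose (2.12-fold, adjusted p = 0.0154). Of 8 interferon genes none was called with TNFα relative to Mock. IFNB1 and IFNA2 lay below the 20th percentile of signal on all 8 arrays, and IFNL1, IFNL3 and IFNE on none. IFNE rose 1.61-fold with FGF19 relative to Mock (adjusted p = 0.00821) and was not called with FGF19 + TNFα relative to TNFα (adjusted p = 0.333).

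With FGF19 the upstream genes went both ways relative to Mock, where 18.2% of all probesets rose and 14.1% fell. Relative to Mock, of 5 signal transducers 3 rose, among them JAK2 (2-fold, adjusted p = 0.00957), and 2 fell, TYK2 and IRF9. TYK2 had 189 and 266 with FGF19 against 474 and 451 in Mock, and 257 and 261 with FGF19 + TNFα against 580.5 and 596 with TNFα, a fall of 2.06-fold and 2.27-fold (adjusted p = 0.00555 and 0.00464). IRF9, the DNA-binding part of ISGF3, had 97.4 and 154 with FGF19 against 237 and 240.0 in Mock, and 122 and 96.3 with FGF19 + TNFα against 250.5 and 271 with TNFα, a fall of 1.95-fold and 2.41-fold (adjusted p = 0.0214 and 0.00959). IRF2, an opponent of IRF1, rose 2.13-fold, and IRF3, the factor that switches on IFNB1, fell 2.14-fold relative to Mock (adjusted p = 0.00281 and 0.00281). Of 10 sensing genes 4 rose, TLR3, CGAS, TBK1 and ADAR, and 2 fell, STING1 and IKBKE.

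Of 11 other genes of class I presentation, 2 rose, 4 fell and 5 were not called with FGF19 relative to Mock, where 18.2% of all probesets rose and 14.1% fell. The counts were the same relative to TNFα, where 19.4% rose and 12.9% fell. PSMB8 and PSMB9, the interferon-induced subunits of the immunoproteasome that lie next to the TAP genes, had 225 and 292 with FGF19 against 581 and 618 in Mock, and 302 and 252 with FGF19 + TNFα against 577 and 633 with TNFα for PSMB8, a fall of 2.34-fold and 2.19-fold (adjusted p = 0.00359 and 0.00486), and a fall of 2-fold and 1.77-fold for PSMB9 (adjusted p = 0.00505 and 0.0099). PSME2, of the proteasome activator, fell 1.94-fold, and SEC61A1, of the endoplasmic reticulum channel, 1.7-fold relative to Mock (adjusted p = 0.00557 and 0.00572). The peptide-trimming enzymes ERAP1 and ERAP2 rose 1.56-fold and 1.49-fold (adjusted p = 0.00366 and 0.0176). Of 9 genes of class II presentation, which few epithelial cells express without interferon gamma, 1 was called relative to Mock, the dim HLA-DQA1, and none relative to TNFα.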

How the data were processed

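Cells of the DU145 line were profiled on 8 arrays in 4 groups of 2, taken from the sample labels. The authors deposited 1 table of linear PLIER signal intensity for 33297 probesets, made with Affymetrix Expression Console according to the submitters' processing notes; the sources used here give no version and no normalization. Before log2 was taken, 240 zeros were raised to 0.01, the lowest signal above 0, and arrays were not scaled further. A linear model of the 4 groups was fitted to all probesets by lmFit and eBayes of limma 3.58.1 (R 4.3.3), with Benjamini-Hochberg adjustment, a threshold of 0.05 for 6 comparisons and of 0.015 for the F test among groups, after the one-way analysis of variance that the paper's supplement names. An array signal has no count of molecules behind it, so that precision rests on the number of arrays.

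Gene names came from the annotation of the platform, with 1 symbol for 19460, several for 1754 and none for 12083, and symbols were updated through Entrez identifiers for 19429. Promoter windows and gene spans came from RefSeq on GRCh38.p14. The 49 genes and the lists of related genes were chosen with earlier results of these data known. Genes were named by a rule: up to 10 called genes with the smallest p in each comparison, a fixed set of ISG15, IFIT1, MX1, OAS1, TAP1, B2M and PML, up to 4 genes of each other list with the smallest p among those called, and any of the 49 where its role is described. Replicate numbers did not pair the arrays: deviations from group means of same-numbered arrays correlated at -0.02 to 0.20. The fit was tested on simulated data. Results were recomputed after cyclic loess or quantile normalization, with 16 added to each signal, without the dimmest 20 percent of probesets, with unmoderated variances, with a prior that was trended and robust, from the compared groups alone, with the mean of a gene's probesets, with the replicate number as a block, and without each array in turn. A difference made by TNFα averaged over FGF19 was added after the data had been seen. Figures were drawn with matplotlib 3.10.9.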

Additional observations from a re-analysis of the deposited data

Results flagged for a closer look

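IFITM1, an antiviral membrane protein gene, was singled out because the difference made by TNFα had opposite signs with and without FGF19 on every array. Its signals were 87.7 and 93.3 with FGF19 + TNFα against 82.8 and 75.7 with FGF19, and 62.9 and 67.6 with TNFα against 70.7 and 69.2 in Mock. The interaction was 0.29 on the log2 scale, and it did not pass the test (adjusted p = 0.966 from limma).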

How the results depend on the processing

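No result called in the main fit or under the setting compared with it changed direction. A change of sign in a difference called in neither was not counted, and counts of genes carry no direction. The check therefore cannot show whether differences that were not called kept their sign. For TNFα against Mock the count of 0 genes called became 2 with 16 added before log2 and 2 with the dimmest 20 percent of probesets left out (IFIT3 and IFIH1 in each), 1 with unmoderated variances (PML), 4 with a trended and robust prior (IFIT3, IFIH1, TAP1 and TAPBP), and 1 with the difference averaged over FGF19 (IFIH1), and it stayed 0 without any 1 array. The F test called 22 genes, 8 with unmoderated variances, and 4 to 18 with 1 array left out, the fewest without a Mock array (4 and 5). Leaving out 1 array gave 16 to 25 calls for FGF19 against Mock (25 with all), 14 to 27 for FGF19 + TNFα against TNFα (26 with all), 15 to 27 for FGF19 + TNFα against Mock (26 with all, 15 and 17 without a Mock array), and 0 for FGF19 + TNFα against FGF19 and for the interaction. With the replicate number as a block, which the labels do not tie to a shared culture or day, the counts were 25, 27 and 24 for those 3 comparisons, 16 for the F test and 0 for the other comparisons. The calls of OAS1 and TAP1 were the ones lost among genes of the fixed set, and PML was gained with unmoderated variances. Signals near the floor, as of IFI44L, BST2, TRIM22 and RSAD2, limit what can be said of those genes.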
